A study of Mus musculus with 10 samples.

Results

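The genes described here are 49 genes that identify macrophages or serve them as receptors for phagocytosis, with the ligands, adaptors and enzymes that work beside them. They were chosen by name, with earlier results of these data known, and sorted by known role. The roles were lineage and growth factor genes, Fc receptors, scavenger and pattern receptors, TAM receptors and lipid-associated genes. The others were genes of resident macrophages, genes of recruited monocytes, inhibitory receptors and the phagocyte oxidase. Of the 49 genes, 48 were found among the 21792 genes of the deposited tables. Of these, 46 reached a mean of 0.1 FPKM (fragments per kilobase of gene model per M fragments) over the 10 mice and so were among the 17129 genes tested. *Trem1* and *Lyve1* lay under that mean and are described by their values alone. *Lilrb4a* was not matched to an identifier in the tables and has no value here.

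Macrophages are phagocytes that live in most organs and are also replenished from blood monocytes. Their survival depends on the receptor CSF1R, their lineage on the transcription factor PU.1, and their uptake of particles on receptors for antibody, for sugars and modified lipids, and for the phosphatidylserine of dying cells. In the kidney, resident macrophages lie between the tubules, and monocytes enter after injury. Macrophages that take up much lipid and debris are known to express TREM2, GPNMB and apolipoprotein E.

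The study compared the renal cortex of 4 sham mice and 6 mice with aristolochic acid nephropathy (AAN), a toxic tubular injury by a plant acid, at day 28. All mice were wild type (WT), and the methods give male C57BL/6 mice of 8 weeks at the start. The AAN mice had received aristolochic acid intraperitoneally a single time at 5 mg/kg, and the sham mice PBS alone. Whole cortex was sequenced with no sorting of cells, so more macrophages and more RNA per macrophage cannot be told apart in any value below.

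Depth, recovered from the low values of the tables, was 15.8 M to 17.5 M fragments per sham library and 13.4 M to 16.5 M per AAN library. Mitochondrial genes made up between 39.5% and 61.4% of all FPKM of a sham mouse and between 21.4% and 55.0% of those of an AAN mouse. The median log2 fold change of all genes tested, AAN minus sham, was 0.75, and changes of the genes below are to be read against it. The proximal tubule genes that define cortex (*Slc34a1*, *Lrp2*, *Slc5a2*, *Slc22a6*, *Slc13a3* and *Aqp1*) were present in every mouse, with a summed level of 1730 to 3886 FPKM in sham mice. In AAN mice this sum was 530 to 2015 FPKM, and the highest was that of the mouse B614. Tags of 3 sham and 5 AAN mice begin with B, and no batch is given in the labels.

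Nearly the whole set was higher in the AAN cortex. In limma, 43 of the 46 genes tested rose at an adjusted p of at most 0.05 and at least 2-fold, against 35.8% of all genes tested, and 0 fell, against 3.43%. All 46 fitted changes were above 0, against 82.3% of all genes tested. After rescaling by the median of ratios, 41 of 44 were, against 52.5% of all genes. In 41 of the 46, the value of every AAN mouse lay above that of every sham mouse, which was so for 40.3% of all genes. The 3 genes that did not pass were *Mertk*, *Gas6* and *Cd63*. *Marco*, *Timd4*, *Msr1*, *Clec4n*, *Ms4a4a* and *Siglec1* had a sham mean under 0.1 FPKM. They reached the filter only through their AAN values, as did some genes of the lists below. Such genes could hardly come out lower, so their counts and adjusted p-values are to be read with this limit. The median log2 fold change of the 46 genes was 3.84, at the 97.1 percentile of all genes tested by the median of the genes' ranks, and it was 3.84 also with *Timd4*, listed at 0 in every sham mouse, at its lower bound. Rescaling the mice by the median of ratios brought the median of all genes to 0.05 and that of the set to 3.44.

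The genes differed widely in level. By FPKM, which is per length of gene, the highest mean levels in sham mice were those of *Cd63* (792 ± 147 FPKM, SD, n = 4) and *Gas6* (184 ± 26.7 FPKM, SD, n = 4), both among the genes that did not pass. The highest in AAN mice were *Cd63* (938 ± 108 FPKM, SD, n = 6), *Apoe* (361 ± 179.5 FPKM, SD, n = 6) and *Tyrobp* (267 ± 110 FPKM, SD, n = 6). Among AAN mice, B614 had the lowest value in 38 of the 48 genes with values and the highest in 3, namely *Adgre1*, *Gas6* and *Ly6c2*. The highest value was that of B642 in 17 genes, A483 in 13 and B639 in 11. Among sham mice, B634 was lowest in 27 of the 48. Without B614 and B634, 43 of the genes rose, and 5844 of all genes did, against 6126 of all genes with all mice.

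**Figure D1:**
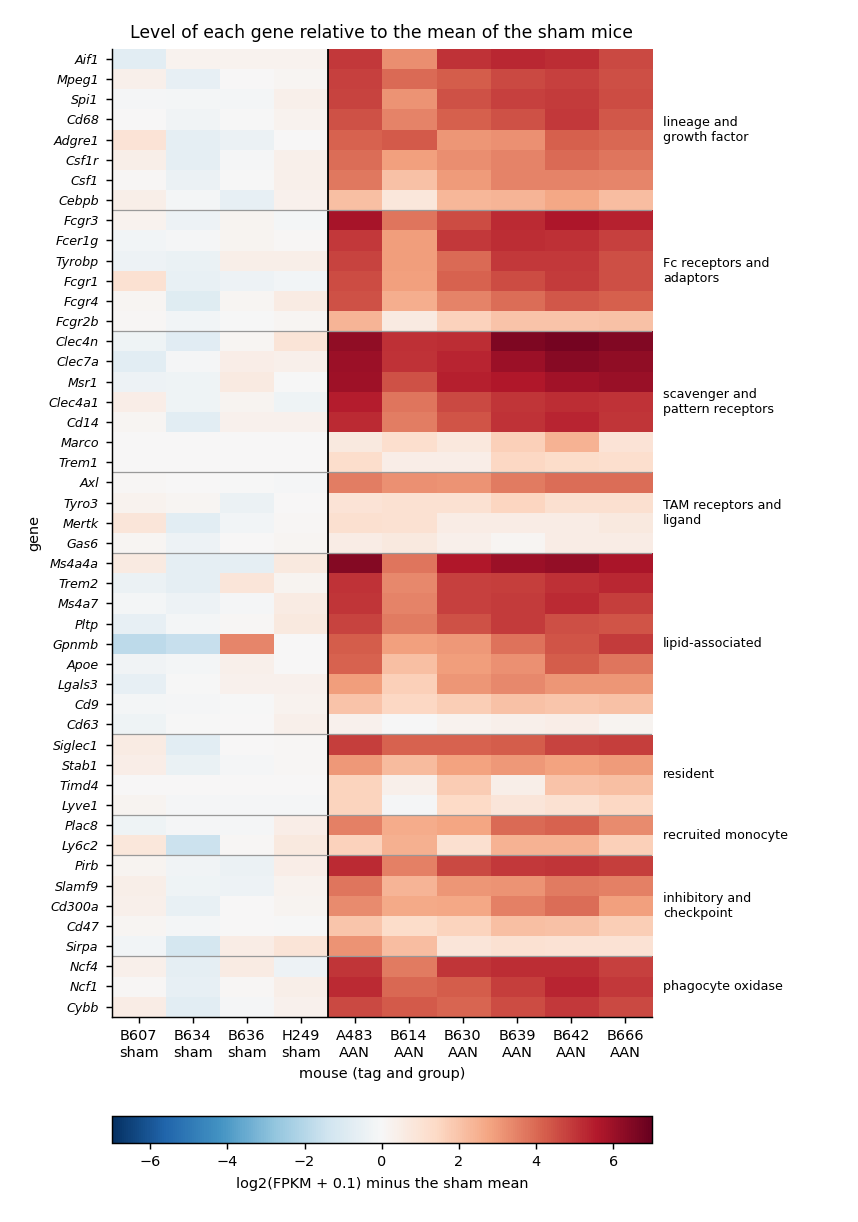
Level of each of the 48 genes with values in each of the 4 sham and 6 AAN mice, as log2(FPKM + 0.1) minus the mean of the sham mice, with genes ordered by role and, within a role, by the difference between the groups. The AAN columns are red for nearly all genes and paler in B614, and *Gpnmb* stands out in the sham mouse B636.

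The 8 lineage and growth factor genes all rose, against 35.8% of all genes tested. *Adgre1* (ENSMUSG00000004730, GRCm38 chr17:57358691-57483527, plus strand), which encodes the F4/80 antigen of mouse macrophages, was at 2.18, 0.664, 0.791 and 1.08 FPKM in the 4 sham mice, and at 9.66 to 22.3 FPKM with a median of 19.6 in the AAN mice. The groups did not overlap, and the log2 fold change was 3.81 (standard error 0.34, limma adjusted p = 2.52e-06). The AAN mice were themselves in separate ranges for this gene: B630 and B639 were at 9.66 and 10.4 FPKM, and the other 4 mice were between 18.7 and 22.3 FPKM. *Csf1r*, the receptor for colony stimulating factor 1, was at 6.22, 3.06, 4.38 and 5.96 FPKM in sham mice and at 35.2 to 75.5 FPKM (median 59.2) in AAN mice, with a log2 fold change of 3.54 (standard error 0.26, limma adjusted p = 5.85e-07). *Csf1*, its ligand, was at 1.35, 0.96, 1.28 and 1.69 FPKM in sham mice and at 5.74 to 17.6 FPKM (median 15.0) in AAN mice, a log2 fold change of 3.17 (standard error 0.29). Both genes of this pair were lowest in the AAN mouse B614 and did not overlap between the groups.

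*Aif1*, which encodes the calcium-binding protein IBA1 of macrophages, had the largest change of this group. Its sham values were 0.232, 0.551, 0.569 and 0.568 FPKM and its AAN values 5.31 to 21.8 FPKM (median 17.8), a log2 fold change of 4.73 (standard error 0.38, limma adjusted p = 9.57e-07). *Mpeg1*, which encodes the pore-forming perforin-2, had the highest AAN level of the group, 75.2 to 133 FPKM (median 113) against 6.10, 3.10, 4.88 and 5.25 FPKM in sham mice (log2 fold change 4.49, standard error 0.22). *Cd68*, a lysosomal glycoprotein, and *Spi1*, which encodes PU.1, had log2 fold changes of 4.31 and 4.43. The smallest change was that of *Cebpb*, a transcription factor of myeloid cells that is also used by many other cells. It was at 6.57, 4.36, 3.31 and 6.01 FPKM in sham mice and at 8.68 to 33.0 FPKM (median 23.6) in AAN mice, with no overlap (log2 fold change 2.09, standard error 0.33, limma adjusted p = 0.000225).

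**Figure D2:**
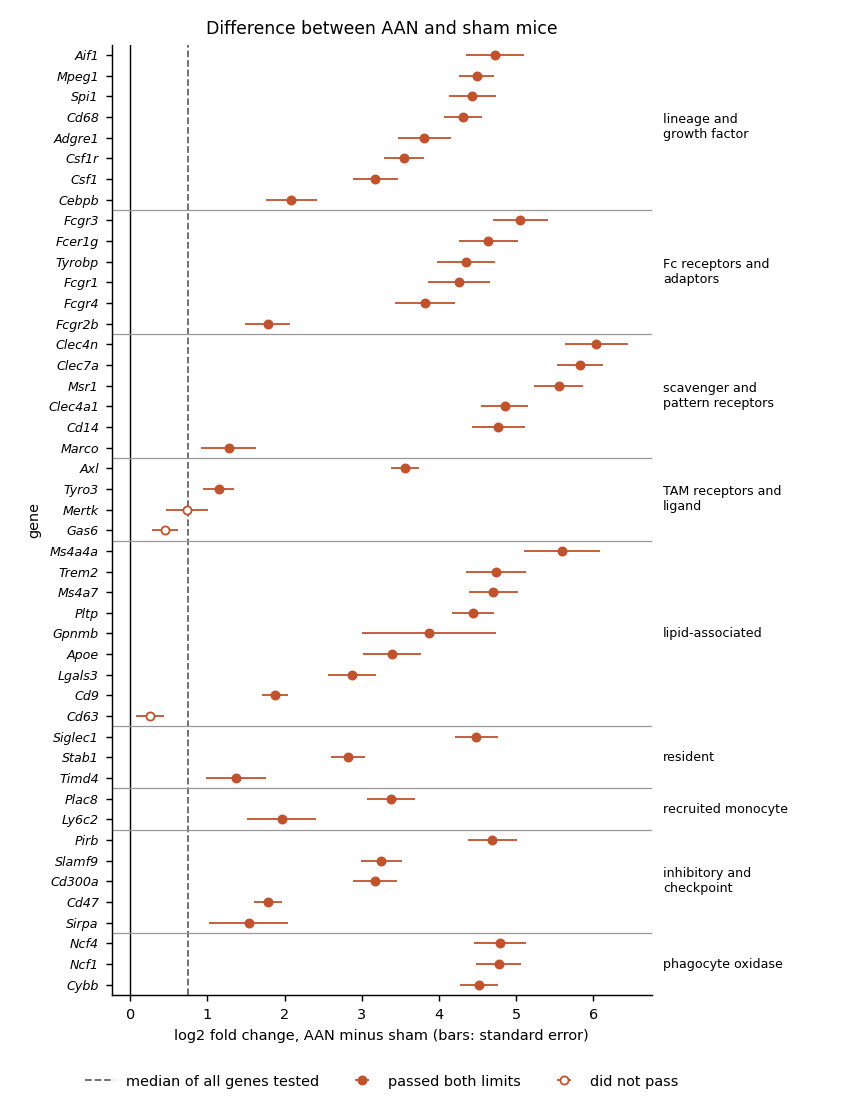
Log2 fold change (AAN minus sham) of the 46 genes tested, with its standard error from limma, by role. Filled points passed both limits, open points did not, and the dashed line is the median of all genes tested, 0.75. *Clec4n* lies farthest to the right at 6.03, and *Mertk*, *Gas6* and *Cd63* are the open points.

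All 6 Fc receptor and adaptor genes rose, against 35.8% of all genes tested. *Fcgr3*, an activating receptor for IgG, changed most: it was at 1.19, 0.758, 1.16 and 0.903 FPKM in sham mice and at 14.5 to 59.6 FPKM (median 42.6) in AAN mice (log2 fold change 5.05, standard error 0.36, limma adjusted p = 4.59e-07). *Fcgr2b*, the inhibitory receptor of the family, changed least and was already at 8.42, 7.14, 7.80 and 8.92 FPKM in sham mice. In AAN mice it was at 12.3 to 42.9 FPKM (median 32.6), above every sham mouse (log2 fold change 1.78, standard error 0.29, limma adjusted p = 0.000263). *Fcgr4*, another activating receptor, was at 2.14, 1.005, 2.13 and 2.95 FPKM in sham mice and at 11.5 to 44.7 FPKM (median 33.3) in AAN mice (log2 fold change 3.82, standard error 0.38). The inhibitory gene was thus above the activating one in every sham mouse, and the pair stood at like levels in AAN mice. The high-affinity receptor *Fcgr1* had a log2 fold change of 4.25, and its shared signalling chain *Fcer1g* one of 4.64. *Tyrobp*, the adaptor DAP12 of many myeloid receptors, had the highest level of the group, 91.4 to 369 FPKM (median 296) in AAN mice against 9.32, 8.39, 15.7 and 15.5 FPKM in sham mice (log2 fold change 4.35, standard error 0.38). *Fcgr2b* (chr1:170958617-170976547), *Fcgr4* (chr1:171018920-171029761) and *Fcgr3* (chr1:171051174-171064935) are neighbours of similar sequence on GRCm38, so fragments shared between them make their values uncertain.

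The scavenger and pattern receptors held the largest changes of the set with the pseudocount of 0.1. With a pseudocount of 1 the largest was that of *Fcer1g* (4.39), ahead of *Clec7a* (4.35). *Clec4n* (ENSMUSG00000023349, GRCm38 chr6:123229843-123247021, plus strand), which encodes the fungal sugar receptor dectin-2, was at 0.0434, 0, 0.0923 and 0.230 FPKM in sham mice and at 5.88 to 18.3 FPKM (median 14.0) in AAN mice. Its log2 fold change was 6.03 (standard error 0.41, limma adjusted p = 3.57e-07) with the pseudocount of 0.1 and 3.51 with a pseudocount of 1, because its sham values were close to 0. *Clec7a*, which encodes dectin-1, a receptor for beta-glucan, was at 0.196 to 0.573 FPKM in sham mice and at 16.4 to 40.2 FPKM in AAN mice (log2 fold change 5.83). The class A scavenger receptor gene *Msr1* was at 0.0286 to 0.152 FPKM and at 3.39 to 10.7 FPKM (log2 fold change 5.55). *Cd14*, the co-receptor for lipopolysaccharide, had the highest level of the group, 24.4 to 82.8 FPKM (median 68.4) in AAN mice against 2.18, 1.12, 2.47 and 2.43 FPKM in sham mice (log2 fold change 4.77, standard error 0.35). *Clec4a1*, a C-type lectin of myeloid cells, had a log2 fold change of 4.85.

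The other 2 genes of this group were hardly present. *Marco*, a scavenger receptor typical of macrophages of the lung and the lymphoid organs, was listed at 0 in all 4 sham mice and at 0.0603 to 0.441 FPKM (median 0.109) in AAN mice. Its 6 AAN values stood for at most 29.6 fragments together, and its fitted log2 fold change of 1.27 (limma adjusted p = 0.00854) depended on the pseudocount, at 0.21 with a pseudocount of 1, where it no longer passed. *Trem1*, a receptor that amplifies inflammation in neutrophils and monocytes, was also listed at 0 in all 4 sham mice. Its AAN values were 0.0391 to 0.168 FPKM, at most 30.0 fragments together.

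The TAM receptors, which recognise phosphatidylserine on dying cells through the bridging ligand GAS6, differed among themselves. *Axl* (ENSMUSG00000002602, GRCm38 chr7:25757273-25788705, minus strand), the receptor associated with inflamed tissue, was at 2.70, 2.62, 2.55 and 2.44 FPKM in sham mice and at 23.8 to 39.7 FPKM (median 32.6) in AAN mice. These groups lay far apart, with a log2 fold change of 3.56 (standard error 0.18, limma adjusted p = 1.26e-07). *Mertk* (ENSMUSG00000014361, GRCm38 chr2:128698956-128802894, plus strand), the receptor of resting macrophages, was at 7.70, 2.54, 3.68 and 4.49 FPKM in sham mice and at 6.03 to 9.42 FPKM (median 6.49) in AAN mice. The sham mouse B607 was above 4 of the 6 AAN mice, and the log2 fold change of 0.73 (standard error 0.27, limma adjusted p = 0.0344) was under the 2-fold limit. Without B607 it was 1.01 (limma adjusted p = 0.00268) and passed, while after rescaling by the median of ratios it was -0.015 (limma adjusted p = 0.959).

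*Tyro3*, the third receptor, was low throughout, at 0.315, 0.287, 0.171 and 0.269 FPKM in sham mice and 0.597 to 0.896 FPKM (median 0.666) in AAN mice. It rose with no overlap (log2 fold change 1.14, standard error 0.20, limma adjusted p = 0.00045), but under a pseudocount of 1 the change was 0.42, after the median of ratios 0.54 (limma adjusted p = 0.0509), and after quantile normalization -0.11. *Gas6*, the ligand, was abundant in every mouse, at 199, 145, 187 and 204 FPKM in sham mice and 199 to 287 FPKM (median 261) in AAN mice. Its groups overlapped only through B639, the lowest AAN mouse, and its log2 fold change of 0.45 (standard error 0.16, limma adjusted p = 0.0322) was under the limit, below the median of all genes, and turned to -0.32 after the median of ratios.

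Among the 9 lipid-associated genes, 8 rose, against 35.8% of all genes tested. *Ms4a4a*, a membrane protein of the MS4A family, changed most: it was at 0.137, 0, 0 and 0.145 FPKM in sham mice, 4.00 fragments in all, and at 1.98 to 13.2 FPKM (median 8.87) in AAN mice (log2 fold change 5.59, standard error 0.49, limma adjusted p = 1.98e-06). *Trem2* (ENSMUSG00000023992, GRCm38 chr17:48346401-48354147, plus strand), the receptor for lipids and debris, was at 0.056, 0.0309, 0.268 and 0.139 FPKM in sham mice and at 2.04 to 7.90 FPKM (median 6.25) in AAN mice (log2 fold change 4.74, standard error 0.39). *Ms4a7*, a relative of *Ms4a4a*, and *Pltp*, which encodes the phospholipid transfer protein, had log2 fold changes of 4.70 and 4.44. None of these 4 genes overlapped between the groups.

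*Apoe*, which encodes the lipid carrier apolipoprotein E, was at 25.9, 27.6, 38.8 and 30.4 FPKM in sham mice and at 130 to 585 FPKM (median 341) in AAN mice, the widest range in FPKM of the set (log2 fold change 3.39, standard error 0.38). *Gpnmb*, a lysosomal glycoprotein, was at 0.00764, 0.0253, 4.05 and 0.284 FPKM in sham mice and at 2.67 to 11.3 FPKM (median 6.18) in AAN mice. One sham mouse, B636, reached 4.05 FPKM, above 2 of the AAN mice, so that its log2 fold change of 3.87 had a standard error of 0.87 (limma adjusted p = 0.00241). It was 5.02 without B636 and 3.26 without the sham mouse B607. *Lgals3*, which encodes galectin-3, and *Cd9*, a tetraspanin, had log2 fold changes of 2.87 and 1.87. *Cd63*, a tetraspanin of lysosomes and exosomes in most cell types, was at 635, 754, 791 and 989 FPKM in sham mice and at 761 to 1085 FPKM (median 945) in AAN mice. The groups overlapped and it did not pass (log2 fold change 0.25, standard error 0.18, limma adjusted p = 0.232), with a value of -0.51 after the median of ratios.

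The genes of resident macrophages were low in sham cortex. *Siglec1*, the sialic acid receptor sialoadhesin, was at 0.149, 0, 0.0713 and 0.0791 FPKM in sham mice and at 2.78 to 4.73 FPKM (median 3.67) in AAN mice (log2 fold change 4.48, standard error 0.27, limma adjusted p = 2.07e-07). *Stab1*, the scavenger receptor stabilin-1, had the highest level of the group, 5.68 to 10.3 FPKM (median 9.33) in AAN mice against 1.65, 0.791, 1.10 and 1.21 FPKM in sham mice (log2 fold change 2.82, standard error 0.22). Both were without overlap.

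*Timd4* (ENSMUSG00000055546, GRCm38 chr11:46810800-46844332, plus strand), the phosphatidylserine receptor TIM-4 of long-lived resident macrophages, was listed at 0 in all 4 sham mice and at 0.0293 to 0.338 FPKM (median 0.216) in AAN mice. These stood for 39.0 fragments in the 6 AAN mice together, which was at least 9.24-fold higher than the floor of 3 fragments over the sham group, a limit for counting error only. Its fitted log2 fold change of 1.37 (limma adjusted p = 0.00928) is no bound and fell to 0.24 with a pseudocount of 1, where it no longer passed. *Lyve1*, a hyaluronan receptor of some resident macrophages and of lymphatic endothelium, was at 0.0219, 0, 0 and 0 FPKM in sham mice and at 0 to 0.210 FPKM (median 0.147) in AAN mice, with 0 in B614. It stood for at most 1.12 fragments in the sham mice and 35.8 in the AAN mice. Of the lymphatic endothelium genes *Prox1*, *Flt4* and *Pdpn*, 1 of 3 tested rose, against 35.8% of all genes. This was *Pdpn*, also expressed in other cells (log2 fold change 3.26), while *Prox1*, the defining factor of lymphatic endothelium, had a log2 fold change of -0.18 (limma adjusted p = 0.689). Whether these cells had a part in the *Lyve1* values was not tested.

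The 2 genes of recruited monocytes rose, against 35.8% of all genes tested. *Plac8*, expressed in monocytes and other leukocytes, was at 3.53, 4.05, 4.03 and 5.99 FPKM in sham mice and at 26.3 to 77.9 FPKM (median 47.3) in AAN mice (log2 fold change 3.38, standard error 0.31, limma adjusted p = 2.83e-06). *Ly6c2*, the gene of the inflammatory monocyte antigen Ly-6C, was at 0.380, 0, 0.195 and 0.348 FPKM in sham mice and at 0.517 to 1.49 FPKM (median 1.10) in AAN mice. Its groups did not overlap (log2 fold change 1.96, standard error 0.45, limma adjusted p = 0.00261), but it no longer passed with a pseudocount of 1 (0.73) or after quantile normalization (0.96, limma adjusted p = 0.18), and the change was 1.36 without B614 and B634. Fragments shared with its near-identical neighbour *Ly6c1*, whose mean level was 12.9 FPKM in the sham group and 22.2 FPKM in the AAN group, make its level uncertain.

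**Figure D3:**
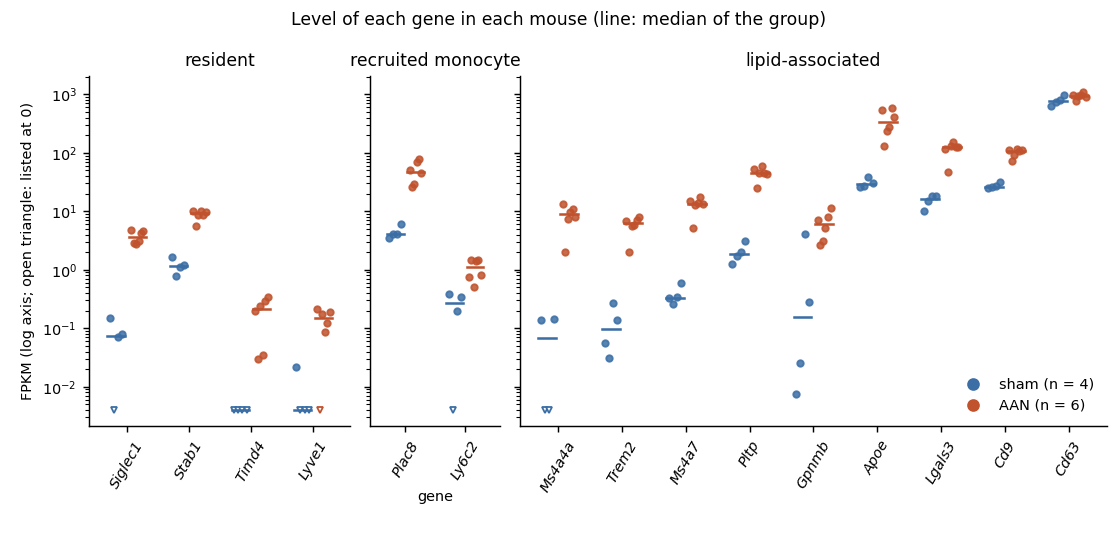
FPKM of each resident, recruited monocyte and lipid-associated gene in each mouse on a log axis, with sham mice in blue, AAN mice in orange, a line at the median of each group, and an open triangle for a value listed at 0. *Timd4* and *Lyve1* stay below 0.34 FPKM in every mouse, *Cd63* overlaps between the groups, and the sham mouse B636 lies within the AAN range of *Gpnmb*.

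Of the inhibitory and checkpoint genes, all 5 with values rose, against 35.8% of all genes tested. *Pirb*, an inhibitory receptor for MHC class I, changed most, from 0.275, 0.173, 0.150 and 0.348 FPKM in sham mice to 3.66 to 12.0 FPKM (median 9.77) in AAN mice (log2 fold change 4.69, standard error 0.31, limma adjusted p = 3.4e-07). It belongs to a family of near-identical genes, so its value may include their fragments. *Slamf9*, a myeloid receptor of the SLAM family, had the highest level of the group, 19.0 to 48.5 FPKM (median 36.2) in AAN mice against 4.70, 2.84, 2.78 and 4.11 FPKM in sham mice (log2 fold change 3.25, standard error 0.27). *Cd300a*, an inhibitory receptor for phosphatidylserine, had a log2 fold change of 3.17.

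*Sirpa*, the receptor that halts phagocytosis when it meets CD47 on a target cell, had the smallest change of this group. It was at 3.77, 1.76, 6.30 and 8.35 FPKM in sham mice and at 7.76 to 38.9 FPKM (median 9.05) in AAN mice. The AAN mice A483 and B614 stood at 38.9 and 19.7 FPKM and the other 4 between 7.76 and 9.29 FPKM, where they met the highest sham mouse (log2 fold change 1.53, standard error 0.51, limma adjusted p = 0.0211). Its call was lost without the sham mouse B634 (1.11, limma adjusted p = 0.0796), without B614 and B634 (0.99, limma adjusted p = 0.123) and after the median of ratios (0.78, limma adjusted p = 0.207). *Cd47* was at 10.6, 8.68, 9.86 and 9.66 FPKM in sham mice and at 23.6 to 42.5 FPKM (median 35.0) in AAN mice, without overlap (log2 fold change 1.79, standard error 0.18, limma adjusted p = 5.94e-06).

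The 3 genes of the phagocyte oxidase, which makes superoxide in the phagosome, all rose, by 4.52 to 4.79 on the log2 scale. Of all genes tested, 35.8% rose. *Ncf4*, a cytosolic subunit, was at 0.421, 0.162, 0.506 and 0.214 FPKM in sham mice and at 4.87 to 14.2 FPKM (median 12.7) in AAN mice (log2 fold change 4.79, standard error 0.33, limma adjusted p = 4.23e-07). *Ncf1*, another cytosolic subunit, had a log2 fold change of 4.77. *Cybb*, the catalytic membrane subunit, had the smallest change and the highest level, 15.1 to 26.9 FPKM (median 21.4) in AAN mice against 1.15, 0.441, 0.744 and 0.993 FPKM in sham mice (log2 fold change 4.52, standard error 0.24). The membrane partner of *Cybb*, *Cyba*, which many cell types express, did not pass (456 to 597 FPKM in the sham group and 361 to 644 FPKM in the AAN group, log2 fold change -0.18, limma adjusted p = 0.422).

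Since most of the genes rose with the macrophage marker *Adgre1*, each was also compared with it inside the same mouse. This largely takes away scaling between mice where both values lie well above the pseudocount, but not for genes near or below it. These ratios were not tested after rescaling the mice. The difference between the groups in log2(gene/*Adgre1*) passed the test upwards in 8 of 45 genes, against 0.847% of all genes, and downwards in 13, against 92.4% of all genes, most of which are not macrophage genes. The 8 that rose more than *Adgre1* were *Clec4n* (2.22 ± 0.49, standard error, on the log2 scale), *Clec7a* (2.02 ± 0.48), *Ms4a4a* (1.78 ± 0.54), *Msr1* (1.74 ± 0.50), *Fcgr3* (1.24 ± 0.44), *Clec4a1* (1.04 ± 0.41), *Ncf1* (0.96 ± 0.39) and *Cybb* (0.71 ± 0.31). Scavenger and pattern receptors made up 4 of these 8. The 13 that rose less, or did not rise, were *Cd63* (-3.56), *Gas6* (-3.36), *Mertk* (-3.08), *Tyro3* (-2.67), *Marco* (-2.54), *Timd4* (-2.44), *Sirpa* (-2.28), *Fcgr2b* (-2.03), *Cd47* (-2.03), *Cd9* (-1.94), *Ly6c2* (-1.85), *Cebpb* (-1.73) and *Stab1* (-0.99). The other 24 did not pass, *Csf1r* (-0.27 ± 0.34) and *Axl* (-0.25 ± 0.36) among them.

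By role, the comparison with *Adgre1* placed 2 of the 3 resident genes tested below it (*Stab1* and, though not with a pseudocount of 0.01, *Timd4*) and *Siglec1* at 0.67 ± 0.34 (limma adjusted p = 0.0739). Of all genes, 92.4% lay below *Adgre1* and 0.847% above it. Of the lipid-associated genes, 1 of 9 rose more, 2 rose less and 6 did not pass, with *Trem2* at 0.93 ± 0.55 and *Gpnmb* at 0.057 ± 0.91. With *Csf1r* as the reference in place of *Adgre1*, 22 genes rose more and 13 less, with the share of all genes not counted. All 21 genes called against *Adgre1* were called on the same side. The number that rose more rested on single mice: it was 21 without B614, in which *Adgre1* was highest while most of the genes were lowest, 5 without the sham mouse B607, 5 without the AAN mouse B639, 19 without B614 and B634, and 4 in the mice with B tags alone. Leaving out 1 mouse ended the call of *Clec4a1* (B607, H249, A483 or B639), *Cybb* (B607, B634, B630, B639, B642 or B666), *Ncf1* (B607, B634, A483, B639 or B642) and *Stab1* (B636), with a limma adjusted p of 0.0506 to 0.105 in these fits. With a pseudocount of 1, *Msr1* (-0.033), *Ms4a4a* (-0.030) and *Ncf1* (-0.15) turned to the other side, and *Clec4n* (0.47) and *Cybb* (0.52) no longer passed, so that *Clec7a*, *Fcgr3* and *Clec4a1* remained of the 8. Other genes joined them there, for 9 that rose more in all, and 12 did with a pseudocount of 0.01. With a pseudocount of 0.01, 10 genes rather than 13 lay below *Adgre1*. There *Timd4* (-0.072, limma adjusted p = 0.944) and *Marco* (-0.12, limma adjusted p = 0.897), both at 0 in every sham mouse, and *Ly6c2* (-0.98, limma adjusted p = 0.238) no longer passed.

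**Figure D4:**
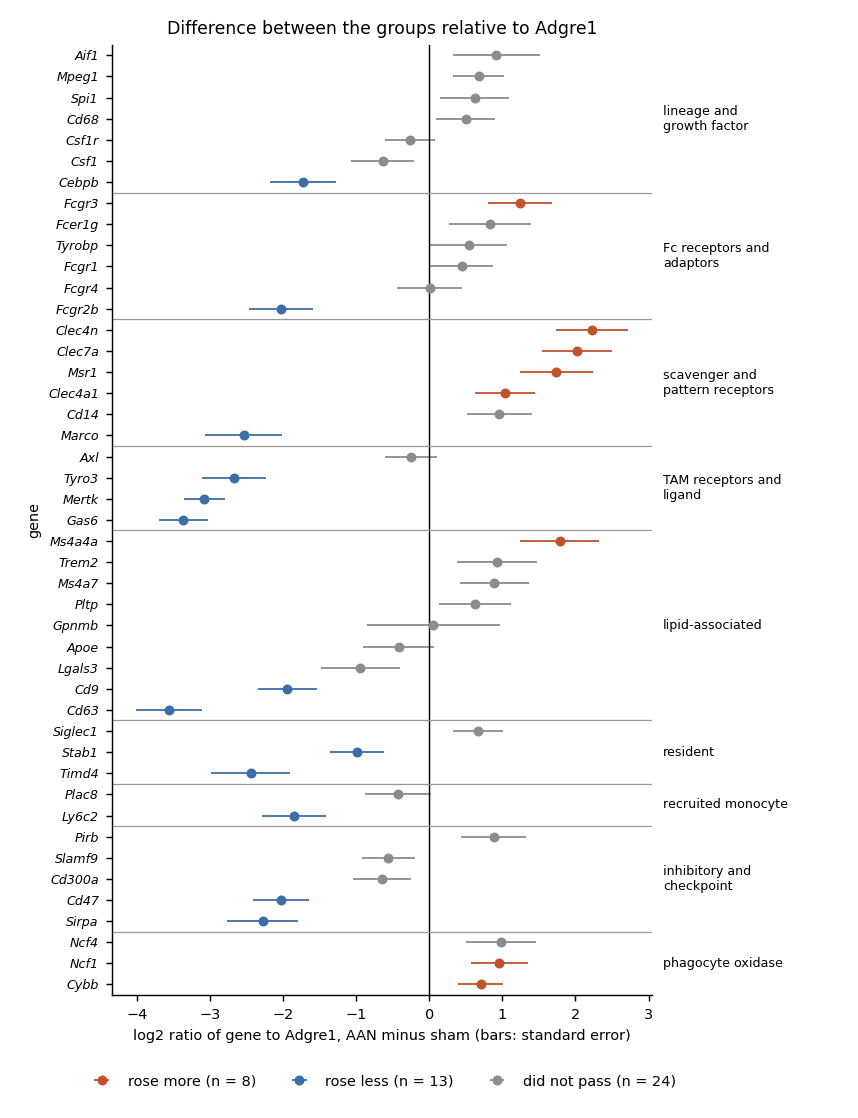
Difference between AAN and sham mice in the log2 ratio of each gene to *Adgre1* of the same mouse, with its standard error from limma, for the 45 genes tested, by role. Orange points (8) rose more than *Adgre1*, blue points (13) rose less, and grey points (24) did not pass. The scavenger and pattern receptors reach farthest to the right and *Cd63*, *Gas6* and *Mertk* farthest to the left.

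For 5 pairs of genes with opposed or joined roles, the difference of their log2 values within each mouse was compared between the groups by permuting the group labels exactly (two-sided, 210 splits), with p-values adjusted over the 5 pairs. The pairs were chosen with earlier results of these data known, so these p-values do not measure chance alone. Each mean difference also equals the difference between the fold changes of its genes given above, and is no separate evidence. *Axl* minus *Mertk* was -1.48, 0.042, -0.51 and -0.85 in sham mice against 1.43 to 2.70 in AAN mice. In 6 of 6 AAN mice it exceeded every sham value, with a mean difference of 2.83 (standard error 0.38, exact permutation p = 0.00476, the smallest this design can give, adjusted p = 0.0119). *Fcgr4* minus *Fcgr2b* was -1.93, -2.71, -1.83 and -1.57 in sham mice against -0.15 to 0.36 in AAN mice. Again 6 of 6 AAN mice exceeded every sham value, with a mean difference of 2.04 (standard error 0.26, exact permutation p = 0.00476, adjusted p = 0.0119). These differences were seen after each mouse was left out in turn, at 2.57 to 3.07 and 1.80 to 2.18.

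The other 3 pairs did not pass with the pseudocount of 0.1 and all mice. *Csf1r* minus *Csf1* was 1.57 to 2.13 in sham mice against 1.79 to 2.60 in AAN mice, a difference of 0.37 (standard error 0.16, exact permutation p = 0.0571, adjusted p = 0.0952). *Trem2* minus *Tyrobp*, a receptor and its adaptor, was -6.03 to -5.43 in sham mice against -5.97 to -5.03 in AAN mice, a difference of 0.39 (standard error 0.20, exact permutation p = 0.11, adjusted p = 0.137). The unadjusted exact permutation p was 0.0357 without B607 and 0.0317 without B639 for the former pair, and 0.0476 without B639 for the latter. With *Trem2* near 0 in sham mice, its sign hung on the pseudocount, at -1.71 with a pseudocount of 1 (exact permutation p = 0.00476) and 1.35 with 0.01 (exact permutation p = 0.00952), and after the median of ratios it was 0.62 (exact permutation p = 0.0429). *Csf1r* minus *Csf1* was 0.75 with a pseudocount of 1 (exact permutation p = 0.00476). These p-values are unadjusted. *Sirpa* minus *Cd47* was -2.24 to -0.21 in sham mice against -2.18 to 0.057 in AAN mice, a difference of -0.25 (standard error 0.61, exact permutation p = 0.729), which was 0.056 without the sham mouse H249.

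**Figure D5:**
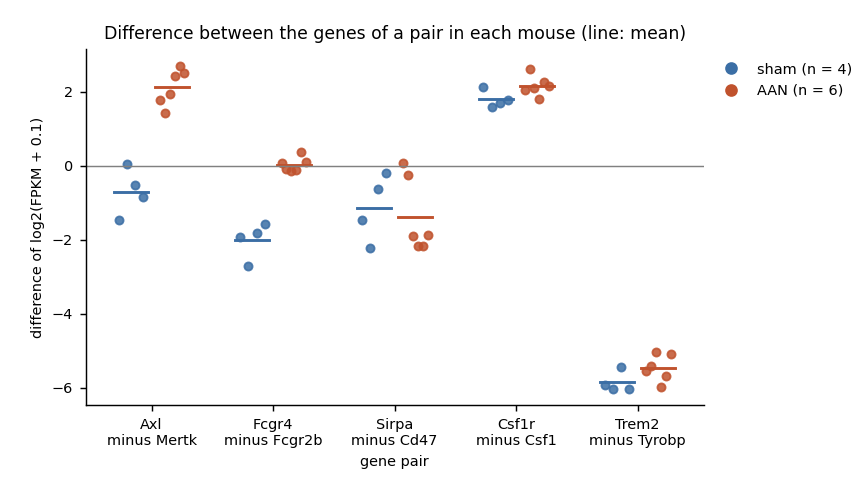
Difference of log2(FPKM + 0.1) between the genes of each of 5 pairs in each sham mouse (blue) and AAN mouse (orange), with a line at the mean of each group. For *Axl* minus *Mertk* and *Fcgr4* minus *Fcgr2b* all 6 AAN mice lie above all 4 sham mice, and the other 3 pairs overlap.

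Promoters were read for the factors that mark this lineage, because *Spi1* and *Cebpb* themselves rose. Of the 49 genes, 37 had a window of 250 bases before to 50 bases after the start in the RefSeq promoter table (GRCm38.p6). The PU.1 motif GAGGAAGT, searched on both strands, was in the window of 4 of the 37 genes (10.8%), namely *Fcgr4*, *Ly6c2*, *Pirb* and *Slamf9*, against 3.69% of 27025 genes. The C/EBP motif TTGCNNAA was in the windows of *Cd300a*, *Cd68*, *Fcgr3*, *Plac8*, *Pltp* and *Trem2* (16.2%), against 12.2% of all genes. The motif TCACGTGA of the lysosomal factors TFEB and MITF was in 0 of the 37 windows, against 1.12% of all genes. A match is a description of letters and not a site of binding. The 200 bases around the start of 3 genes with the PU.1 motif are given 5′ to 3′ on the strand of the gene, with the motif in capitals (for *Fcgr4* its reverse complement), at chr1:171018776-171018975 (plus strand) for *Fcgr4*, chr1:172475210-172475409 (plus strand) for *Slamf9* and chr7:3720333-3720532 (minus strand) for *Pirb*.
Fcgr4: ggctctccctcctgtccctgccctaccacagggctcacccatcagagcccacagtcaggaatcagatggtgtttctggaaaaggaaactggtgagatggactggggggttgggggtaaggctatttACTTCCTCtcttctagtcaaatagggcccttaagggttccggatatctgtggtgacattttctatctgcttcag
Slamf9: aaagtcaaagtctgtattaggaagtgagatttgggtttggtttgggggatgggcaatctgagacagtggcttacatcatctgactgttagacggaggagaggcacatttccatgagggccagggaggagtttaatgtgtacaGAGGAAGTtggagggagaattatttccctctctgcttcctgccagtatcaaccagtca
Pirb: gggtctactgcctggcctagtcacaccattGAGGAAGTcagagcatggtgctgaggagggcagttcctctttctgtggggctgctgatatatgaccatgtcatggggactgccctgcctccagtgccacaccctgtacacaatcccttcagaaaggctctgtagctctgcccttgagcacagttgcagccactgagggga
The motif begins 24 bases before the start in *Fcgr4*, 8 before it in *Slamf9* and 120 before it in *Pirb*. These 3 genes had log2 fold changes of 3.82, 3.25 and 4.69, and *Ly6c2*, which also had the motif, one of 1.96. The median of the set was 3.84, and *Spi1* had a log2 fold change of 4.43.

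Other genes of the same pathways moved with the set, to be read against 35.8% of all genes tested that rose and 3.43% that fell. Of 17 genes of phagocytic signalling, the kinases, exchange factors and integrins that act below these receptors, 16 rose and 0 fell (median log2 fold change 4.02). *Itgam*, the integrin chain CD11b, changed most (at most 0.109 FPKM in the sham group and at least 2.94 FPKM in the AAN group, log2 fold change 5.25), and *Plcg2*, a phospholipase, was the one that did not pass (log2 fold change 0.80, limma adjusted p = 0.00896, under the fold limit). Of 16 further monocyte and macrophage genes tested, 14 rose and 0 fell (median 3.48), from the mannose receptor gene *Mrc1* (log2 fold change 5.26) down to *Cyba*. Beside *Cyba*, *Maf* did not pass (log2 fold change 0.31, limma adjusted p = 0.157). *Folr2* passed with overlapping groups (log2 fold change 1.04), and was at 0.30 after the median of ratios (limma adjusted p = 0.56). *Ccr2* had a log2 fold change of 4.00. In the list of 10 further lipid-associated genes the directions were mixed: 5 rose, led by the integrin gene *Itgax* (log2 fold change 5.14), and 2 fell, the lipase gene *Lpl* (-2.08) and the fatty acid receptor gene *Cd36* (-2.14, from 7.89 to 32.9 FPKM in sham mice to 1.59 to 5.87 FPKM in AAN mice). The median of this list was 1.89.

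Several of the genes are shared with other cells, whose markers moved too. Their counts stand against 35.8% of all genes tested that rose. All 5 dendritic cell genes tested rose (median log2 fold change 3.57, from *Zbtb46* at 1.70 to *Clec9a* at 4.26), with a summed level of 0.969 to 2.89 FPKM in sham mice against 16.1 to 27.4 FPKM in AAN mice. All 6 T and B cell genes tested rose (median 4.35, the largest change that of *Cd3g* at 6.14), with a sum of 1.13 to 2.29 FPKM against 45.4 to 128 FPKM. Neutrophil genes were low: 4 of 5 tested rose, led by *Csf3r* at 3.93, with *Retnlg* at 0.48 (limma adjusted p = 0.531), and their sum was 0.228 to 2.41 FPKM in sham mice against 2.69 to 16.1 FPKM in AAN mice. *Ly6g*, which defines neutrophils, was listed at 0 in every sham mouse and at no more than 0.143 FPKM in AAN mice. The part of these cells in the results was not tested.

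Among cells of the tissue, all 5 fibroblast genes rose (median 2.78, from *Pdgfrb* at 1.78 to *Col1a1* at 4.41), and so did all 5 genes of injured tubule (median 6.19, from *Sox9* at 4.06 to *Havcr1* at 9.24). Of the 6 proximal tubule genes, 4 fell (median -1.78, from *Slc22a6* at -4.28 to *Slc5a2* at -0.60, which did not pass). Of the blood endothelium genes, 0 of 5 passed both limits in either direction in limma (median 0.22, from *Kdr* at -0.27 to *Pecam1* at 0.93). *Pecam1* (limma adjusted p = 0.000155) and *Cdh5* (log2 fold change 0.77, limma adjusted p = 0.00342) failed the fold limit alone. Of the podocyte genes 1 of 4 passed, *Synpo* at 1.15. Of all genes tested, 35.8% rose and 3.43% fell. In B614, where most of the set was lowest among AAN mice, the proximal tubule sum was the highest of the AAN mice and the sums of the fibroblast list (91.5 FPKM) and the injured tubule list (108 FPKM) were the lowest. Whether the extent of injury in that mouse had a part in its values was not tested.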

How the data were processed

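Per the paper's methods, the authors removed rRNA, adapter, short and low-quality reads, aligned the others to GRCm38.p4 with Hisat2 and derived FPKM for known genes with Stringtie. The deposited values are FPKM per gene and mouse, with no counts, so limma took the place of the study's count-based test, with its limits of 0.05 and 2-fold kept. The annotation release and strand use are not given in the sources used here. Symbols and lengths came from GENCODE mouse release 21 (GRCm38), which holds all but 142 of the 21792 genes. Fragments that neighbouring or overlapping genes share (*Csf1r*, *Cebpb*, *Fcgr2b*, *Fcgr3*, *Fcgr4*, *Trem1*, *Mertk*, *Gas6*, *Cd9*, *Pltp*, *Stab1* and *Ncf1* overlap others) cannot be told apart.

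Limma 3.58.1 in R 4.3.3 (trend, robust, two-sided) was run on log2(FPKM + 0.1) of the 17129 genes whose mean reached 0.1 FPKM, with Benjamini-Hochberg adjustment over all of them. Fold changes are on this scale, which understates those of low genes. In genes with 1 transcript, 94.6% to 96.9% of values under 0.3 FPKM were whole fragments (tolerance 0.05), which gave the depths. Fragment numbers of genes with several transcripts are upper limits. On simulated data with 200 genes changed by 2 on the log2 scale, 90% were recovered, with 8 false calls in 17129 genes. The changed genes were drawn from those of higher level in sham mice, and no shift over all genes was simulated. These rates thus do not carry over to genes with low sham values or to the scaling between mice.

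The genes, the 12 gene lists, the 5 pairs and the motifs were chosen with earlier results of these data known. Values per mouse are given, in each role, for the genes with the largest and smallest change, the highest AAN level, those that did not pass, and the pairs. The genes described beside these (among them *Clec7a*, *Msr1*, *Fcgr1*, *Ms4a7*, *Lpl* and *Ly6g*) were named after their values were seen. Per list, the largest and smallest changes are named, except for 2 genes that are not reported here.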

Additional observations from a re-analysis of the deposited data

Results flagged for a closer look

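In 10 of the 106 groups of 4 or 6 mice examined, over the set's genes and pairs, 1 mouse lay far from the others by Dixon's test at the 95% level, where chance gives about 5.3. The AAN mouse B614 was the low one for *Fcer1g* (33.7 FPKM, others 122 to 159), *Lgals3* (47.5 FPKM, others 117 to 156), *Stab1* (5.68 FPKM, others 8.74 to 10.3) and *Ncf4* (4.87 FPKM, others 11.01 to 14.2). The AAN mouse B639 was high for *Tyro3* (0.896 FPKM, others 0.597 to 0.685). Among sham mice, B607 was low for *Aif1* (0.232 FPKM, others 0.551 to 0.569), high for *Fcgr1* (1.45 FPKM, others 0.411 to 0.561) and the sole mouse above 0 for *Lyve1* (0.0219 FPKM). H249 was high for *Spi1* (1.27 FPKM, others 0.897 to 0.916), and B636 for *Gpnmb* (4.05 FPKM, others 0.00764 to 0.284). The sham mouse B636 was also the highest sham mouse for *Trem2* (0.268 FPKM) and *Msr1* (0.152 FPKM), values chosen after they were seen. What set these mice apart was not tested.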

How the results depend on the processing

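No paired analysis was possible because the labels give the mice of the 2 groups no shared number, only separate tags. Leaving out each mouse in turn, 41 to 44 of the set rose in limma and 0 fell, 5 to 21 rose more than *Adgre1* and 11 to 15 rose less. Of all genes, 5488 to 6684 rose and 524 to 703 fell, against 6126 and 588 with all mice. The pairs ranged from 2.57 to 3.07 (*Axl* minus *Mertk*), 1.80 to 2.18 (*Fcgr4* minus *Fcgr2b*), 0.28 to 0.48 (*Csf1r* minus *Csf1*), 0.30 to 0.53 (*Trem2* minus *Tyrobp*) and -0.62 to 0.056 (*Sirpa* minus *Cd47*). *Csf1r* minus *Csf1* passed an unadjusted exact permutation p of 0.05 without B607 (0.48) and without the AAN mouse B639 (0.44), and *Trem2* minus *Tyrobp* without B639 (0.49). Relative to *Adgre1*, 4 genes rose more in the mice with B tags alone and 19 without B614 and B634, a choice made after seeing the data. Relative to *Csf1r*, with all mice, 22 did, with the share of all genes not counted.

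A pseudocount of 1 gave 2909 higher genes of all, *Csf1r* minus *Csf1* at 0.75 and *Trem2* minus *Tyrobp* at -1.71 (both past that limit, exact permutation p = 0.00476), and the ratios to *Adgre1* of *Msr1* (-0.033), *Ms4a4a* (-0.030) and *Ncf1* (-0.15). A pseudocount of 0.01 put *Trem2* minus *Tyrobp* at 1.35 (exact permutation p = 0.00952) and the median of ratios put it at 0.62 (exact permutation p = 0.0429), both past it. With 0.01, 10 genes lay below *Adgre1*. By the median of ratios 3193 genes of all rose and 1810 fell, with *Mertk* at -0.015, *Gas6* at -0.32 and *Cd63* at -0.51. By quantile normalization 2487 rose and 2085 fell, with *Mertk* at -0.022 and *Tyro3* at -0.11. A mean of at least 1 FPKM, with fewer genes tested, gave 4025 higher, the same FPKM total 330 lower, and no fold limit 9482 higher and 1027 lower. The cause was not tested where the scaling moved a value. Depth limits *Marco*, *Trem1*, *Timd4* and *Lyve1*, where 1 fragment is a large share of a value.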
